A study of Mus musculus with 4 samples.

Results

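The GIMAP family (GTPases of immunity-associated proteins) was examined in CD4 T cells with and without ectopic Tox expression. The members were taken by symbol as *Gimap1*, *Gimap3*, *Gimap4*, *Gimap5*, *Gimap6*, *Gimap7*, *Gimap8* and *Gimap9*. These are 8 of the 24369 genes listed, and no other listed symbol begins with Gimap. All 8 had enough counts to be tested, among 14143 genes in total.

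GIMAP proteins are GTP-binding proteins found mainly in lymphocytes. Most are held on internal membranes such as the endoplasmic reticulum, the Golgi apparatus, lysosomes or mitochondria, where they polymerise or pair in a way that depends on bound GTP. Loss of some members depletes peripheral T and B cells, and the family is known chiefly for its part in the survival and quiescence of lymphocytes.

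Naive CD4 T cells came from the spleens of WT C57BL/6 mice by magnetic isolation and were activated with anti-CD3, anti-CD28 and IL-2 in medium that did not polarize them towards any helper lineage. On day 2 they received either an MSCV retrovirus that encodes eGFP alone (EV RV) or 1 that encodes Tox followed by IRES-eGFP (Tox RV). On day 5 the cells of both groups were restimulated through CD3 and sorted as CD4+ GFP+, so that RNA-seq covered transduced cells only. There were 2 libraries per group, which the methods describe as biological replicates from individual mice. Viral Tox is expressed from the vector, while any endogenous *Tox* transcripts remain in both groups and were not counted apart from viral ones. The age of the mice is not given in the sources used here.

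Expected counts totalled 46989997 (replicate 1) and 74548723 (replicate 2) for EV RV, against 61442264 (replicate 1) and 49012254 (replicate 2) for Tox RV. Levels are given as CPM (counts scaled to a common library size) after scaling with TMM, a method that equalizes most genes between libraries, or as TPM, which also corrects for transcript length. *Tox* stood at 5.73 to 11.7 CPM in the EV RV libraries and 99.9 to 121 CPM in the Tox RV libraries, in keeping with the labels. CD4 T cell markers summed to 1648 to 2268 CPM, CD8 T cell markers to 3.88 to 4.77 CPM, B cell markers to 1.40 to 1.75 CPM and myeloid markers to 4.07 to 5.64 CPM. The B cell markers *Ms4a1* and *Pax5* had no count in any library. EV RV replicate 1 stood apart on the first principal component (58.0% of the variance), at −53.8 against 5.70 to 25.8 for the other 3 libraries. The 45S pre-rRNA took 24.7% of its counts and 7.14% to 11.97% of theirs. Values without this library are therefore given for the members and for each gene list.

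The 8 genes lie side by side on chromosome 6, at chr6:48647234-48770851 of mm10, a stretch of 123.6 kb. Their order is *Gimap8*, *Gimap9*, *Gimap4*, *Gimap6*, *Gimap7*, *Gimap1*, *Gimap5* and *Gimap3*. *Gimap6* and *Gimap3* are on the minus strand and the other 6 on the plus strand. All 8 are annotated as protein coding in GENCODE.

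Promoters of 3 members are shown because these genes mark the range of the results below: *Gimap4* had the highest level and the smallest p-value, *Gimap9* differed from the other members between replicates, and *Gimap3* had the smallest difference between the groups. The sequences are RefSeq's, from build GRCm38.p6 (the assembly also called mm10), and run from 250 bases before to 50 bases after the transcript start, 5′ to 3′ on the strand of the gene. Capitals mark matches to the motifs searched on both strands. These were TGANTCA (AP-1), TGTTTAC (FOXO), GGAAGT (ETS) and TGTGGT (RUNX), and a match on the opposite strand reads as the reverse complement.
Gimap4, chr6:48684328-48684627, plus strand: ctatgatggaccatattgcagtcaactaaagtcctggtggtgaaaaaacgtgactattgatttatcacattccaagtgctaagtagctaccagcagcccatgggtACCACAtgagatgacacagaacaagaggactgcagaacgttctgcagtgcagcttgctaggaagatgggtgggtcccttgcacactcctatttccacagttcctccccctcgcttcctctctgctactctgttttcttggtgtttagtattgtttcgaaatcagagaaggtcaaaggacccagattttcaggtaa
Gimap9, chr6:48675885-48676184, plus strand: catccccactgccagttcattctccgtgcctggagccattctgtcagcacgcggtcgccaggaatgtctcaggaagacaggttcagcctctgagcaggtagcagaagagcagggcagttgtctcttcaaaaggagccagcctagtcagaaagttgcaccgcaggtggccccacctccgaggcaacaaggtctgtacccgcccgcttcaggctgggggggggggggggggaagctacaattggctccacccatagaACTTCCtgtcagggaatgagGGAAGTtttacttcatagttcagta
Gimap3, chr6:48770802-48771101, minus strand: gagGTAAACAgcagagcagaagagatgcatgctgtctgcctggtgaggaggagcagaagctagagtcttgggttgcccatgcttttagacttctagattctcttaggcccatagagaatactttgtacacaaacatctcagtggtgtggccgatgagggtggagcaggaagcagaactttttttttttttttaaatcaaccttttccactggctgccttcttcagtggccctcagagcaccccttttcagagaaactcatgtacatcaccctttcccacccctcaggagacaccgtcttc

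The *Gimap4* promoter held 1 RUNX match, that of *Gimap9* held 2 ETS matches and that of *Gimap3* held 1 FOXO match. Over the family, RefSeq gave 9 promoters of this length for the 8 genes, since *Gimap8* had 2. The ETS letters were found in 4 of the 9 (*Gimap9*, *Gimap6*, *Gimap1* and *Gimap5*), against 23.8% of all 32851 promoters of the same table. The RUNX letters were in 3 (*Gimap4*, *Gimap7* and *Gimap1*), against 16.8%. The FOXO letters were in that of *Gimap3* alone, against 3.65%, and the AP-1 letters in 0 of 9, against 7.81%. None of these motifs contains another. A match is a description of the sequence and says nothing of binding.

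GIMAP transcripts were abundant in these cells. Summed over the family they reached 1280 TPM in EV RV replicate 1, 1049 TPM in EV RV replicate 2, 1357 TPM in Tox RV replicate 1 and 1248 TPM in Tox RV replicate 2, which is 0.105% to 0.136% of all transcripts. *Gimap4* had the highest level, with a mean over the 4 libraries that ranked 251 among all genes listed, and *Gimap5* the lowest, at rank 2511. *Gimap4*, *Gimap6* and *Gimap3* together made up 67.2% to 69.6% of the family's TPM in every library, and *Gimap4* alone 30.9% to 33.7%. Smaller shares varied more. *Gimap9* made up 6.13% of the family's TPM in EV RV replicate 1, 9.47% in EV RV replicate 2, 7.53% in Tox RV replicate 1 and 9.26% in Tox RV replicate 2. *Gimap3* made up 16.5% and 15.1% with EV RV but 13.1% and 13.3% with Tox RV, so that its share did not overlap between the groups. The shares of *Gimap1* and *Gimap8* were likewise lower in each Tox RV library than in each EV RV library. Those of the other members overlapped. These differences in share were not tested.

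In order of mean TPM the members were *Gimap4*, *Gimap6*, *Gimap3*, *Gimap9*, *Gimap1*, *Gimap8*, *Gimap7* and *Gimap5*. The ranges over the 4 libraries did not overlap between *Gimap4* and *Gimap6* (348.9 to 442.8 TPM against 197.7 to 307.8 TPM), between *Gimap3* and *Gimap9* (158.6 to 211.6 TPM against 78.5 to 115.5 TPM) or between *Gimap1* and *Gimap8* (84.6 to 101.9 TPM against 68.6 to 83.2 TPM). The other neighbours overlapped. *Gimap6* was above *Gimap3* and *Gimap7* above *Gimap5* in 4 of 4 libraries, whereas *Gimap9* was above *Gimap1* and *Gimap8* above *Gimap7* in 3 of 4.

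**Figure D1:**
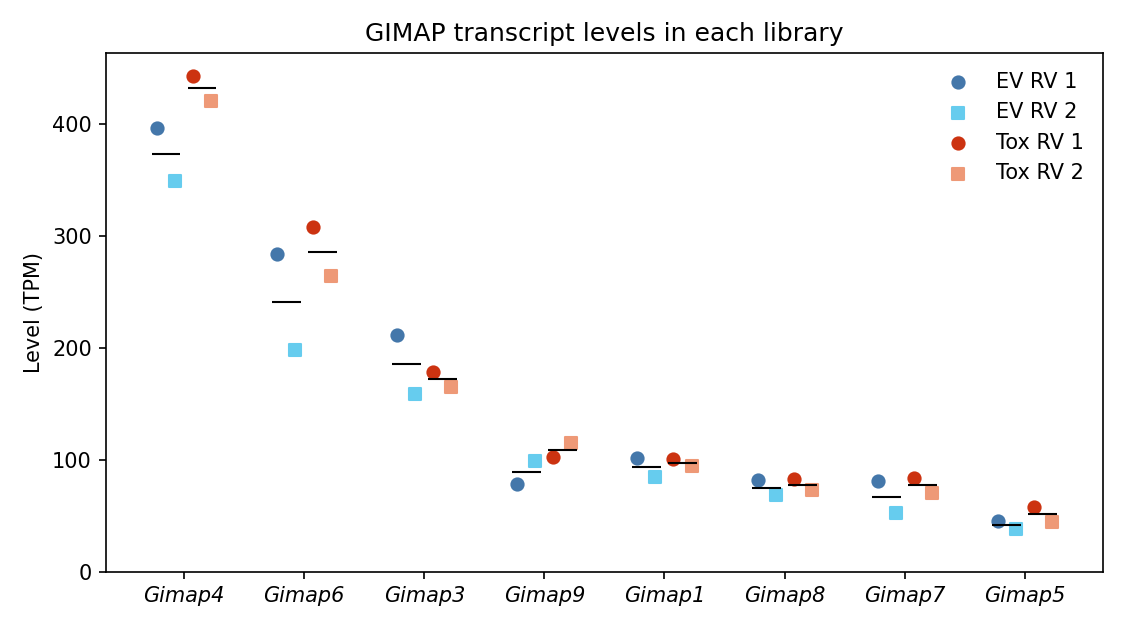
TPM of each GIMAP gene in each library, with genes ordered by their mean and a black line at the mean of the 2 libraries of a group. Gimap4 lies highest, from 348.9 to 442.8 TPM, and Gimap5 lowest, from 38.7 to 58.1 TPM, and EV RV and Tox RV points interleave for most genes.

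The comparison of Tox RV with EV RV asks whether ectopic Tox changed GIMAP transcripts. No member passed the test. Fold changes ran from 0.987 for *Gimap3* to 1.29 for *Gimap5*, 7 of the 8 were above 1, and none of the 8 had an adjusted p-value below 0.05 by edgeR's quasi-likelihood test, adjusted over all genes by the Benjamini-Hochberg method. That is also the background, since 0 of the 14143 genes tested were called (0%), the smallest adjusted p-value being 0.490. *Tox* was among the genes tested and was not called either, so a missing call says little about differences as small as those of the members. At an unadjusted p below 0.05 there were 0 members, whereas 152 genes were higher in Tox RV at that level (1.07% of those tested) and 360 lower. DESeq2 also called 0 members, and called 22 of 18183 genes (0.121%). In bulk RNA, a difference in the share of a cell type and a difference in RNA per cell cannot be told apart.

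The median log2 fold change of the 8 members was 0.32, beside 0.0036 for all genes tested, of which 50.5% were above 0. Of all genes, 25.9% had a log2 fold change at least as far from 0 as the largest of any member (0.37). In CPM, 5 members had each Tox RV value above each EV RV value (*Gimap1*, *Gimap4*, *Gimap5*, *Gimap6* and *Gimap9*), a separation found in 18.6% of all genes tested. No member had both Tox RV libraries below both EV RV libraries. That count depends on the scale. It was 2 in TPM (*Gimap4* and *Gimap9*, against 11.6% of all genes) and 3 with median-of-ratios scaling (*Gimap4*, *Gimap5* and *Gimap9*, against 17.9%). It was 8 when libraries were scaled by their totals alone (against 27.5%), which raised the median of all genes by 0.12 on the log2 scale. The members share their libraries and a locus and are not independent of each other. The median was 0.29 without EV RV replicate 1 but 0.099 without EV RV replicate 2.

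Summed over the family, CPM came to 1228 and 1085 with EV RV and to 1429 and 1311 with Tox RV. The Tox RV sums were above both EV RV sums. The means were 1156 ± 101 (SD, n = 2) and 1370 ± 83.7 (SD, n = 2), a ratio of 1.18. The ratio was 1.26 without EV RV replicate 1 and 1.12 without EV RV replicate 2. In summed TPM, EV RV replicate 1 (1280) lay between the Tox RV libraries, and the ratio of means was 1.12.

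**Figure D2:**
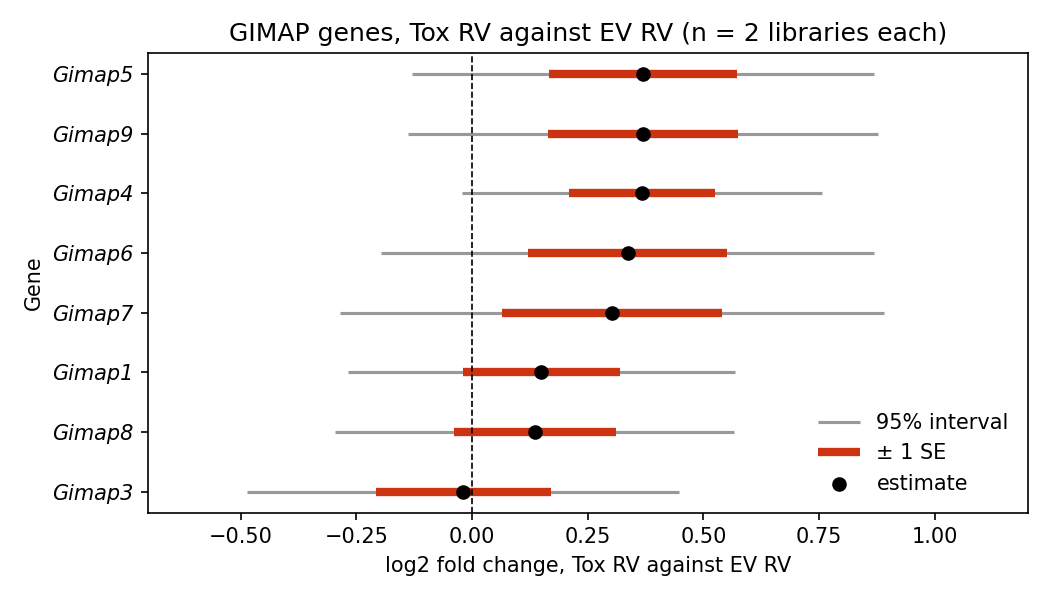
Log2 fold change (Tox RV against EV RV) of each GIMAP gene from edgeR's quasi-likelihood fit, where the black point is the estimate, the red bar ± 1 SE and the grey line the 95% interval. The grey line crosses 0 for all 8 genes, and the red bar crosses 0 for Gimap1, Gimap8 and Gimap3.

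*Gimap5* encodes a lysosomal GTPase whose loss leaves rats and mice short of peripheral T cells. Here and below, values are given for replicate 1 and then replicate 2. It had 49.1 and 43.7 CPM in EV RV, compared with 67.8 and 52.0 CPM in Tox RV. The groups did not overlap, although Tox RV replicate 2 exceeded EV RV replicate 1 by less than it fell short of Tox RV replicate 1. The log2 fold change was 0.37 (SE 0.20), with an adjusted p of 0.897 by edgeR's quasi-likelihood test. It was 0.45 without EV RV replicate 1, but 0.16 without Tox RV replicate 1. Its mean TPM was 42.2 ± 5.01 in EV RV and 51.4 ± 9.51 in Tox RV (SD, n = 2 each).

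*Gimap3*, its neighbour and closest relative, encodes a GTPase of internal membranes. Its levels were 253 and 199 CPM with EV RV and 232 and 215 CPM with Tox RV, so that both Tox RV values fell between the EV RV values. The difference was −0.02 on the log2 scale (SE 0.19), with an adjusted p of 0.989 by edgeR's quasi-likelihood test, and its 95% interval ran from 0.714-fold to 1.36-fold. Its sign was not stable. It was 0.16 without EV RV replicate 1, 0.04 without Tox RV replicate 2 and 0.11 with scaling by library totals. *Gimap3* and *Gimap5* share part of their sequence: of the 25-base words in their transcripts, 15.6% of those of *Gimap3* and 9.54% of those of *Gimap5* occurred in the other gene. RSEM divides reads from such stretches by a model, so the split of those reads between these 2 genes is uncertain. Summing their counts gave a log2 fold change of 0.05. No other pair of members shared a word of that length.

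*Gimap1*, whose product is needed to keep mature B and T cells alive, had 82.7 and 72.2 CPM in EV RV and 88.5 and 83.3 CPM in Tox RV. The groups did not overlap in CPM, but the lower Tox RV library was within 1 CPM of the higher EV RV library. In TPM they did overlap, with means of 93.3 ± 12.3 in EV RV and 97.5 ± 4.09 in Tox RV (SD, n = 2 each). The log2 fold change was 0.15 (SE 0.17), with an adjusted p of 0.902 by edgeR's quasi-likelihood test, and 0.24 without EV RV replicate 1. Without EV RV replicate 2 it was 0.06. An antisense transcript, Gimap1os, covers 36.02% of the exonic bases of *Gimap1*, and use of strand in counting is not given in the sources used here, so reads of the 2 genes within that overlap cannot be told apart. A readthrough gene, Gm28053, spans *Gimap7*, *Gimap1* and *Gimap5* and shares 3.48%, 6.44% and 3.69% of their exonic bases.

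*Gimap4* encodes a GTPase linked to the pace of T cell death. It was the member with the closest replicates and the smallest p-value. EV RV cells had 313 and 323 CPM, and Tox RV cells had 418 and 402 CPM. All Tox RV values were above all EV RV values, with a gap between the groups several times wider than that between replicates. The log2 fold change was 0.37 (SE 0.16), a fold of 1.29 with a 95% interval from 0.985 to 1.69. Its unadjusted p was 0.0604 by edgeR's quasi-likelihood test, which ranked 650 among all genes, and its adjusted p was 0.897. Without EV RV replicate 1 it came to 0.34. In TPM the values were 396 and 349 for EV RV against 443 and 420.3 for Tox RV. There the gap between the groups was smaller than that between the EV RV replicates. RSEM's mean transcript length for *Gimap4* was 1468 bases in EV RV replicate 1 and 1599 to 1620 bases in the other 3 libraries. A shorter length raises TPM for a given count, but its part was not separated from that of library scaling.

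*Gimap6* encodes a partner of the ATG8-type autophagy protein GABARAPL2. Its levels were 249 and 182 CPM in EV RV and 293 and 251 CPM in Tox RV. EV RV replicate 1 lay almost level with Tox RV replicate 2, and EV RV replicate 2 was the lowest library by far. An estimate of 0.34 on the log2 scale (SE 0.22) had an adjusted p of 0.897 by edgeR's quasi-likelihood test. It was 0.57 without EV RV replicate 1, 0.13 without EV RV replicate 2 and 0.22 without Tox RV replicate 1, so its size depended on the libraries used.

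*Gimap7*, whose product dimerizes and stimulates GTP hydrolysis, was ordered in a similar way. It had 55.1 and 37.8 CPM in EV RV and 62.2 and 52.3 CPM in Tox RV, and here EV RV replicate 1 was above Tox RV replicate 2, so the groups overlapped. Its log2 fold change was 0.30 (SE 0.24), with an adjusted p of 0.897 by edgeR's quasi-likelihood test. Leaving out EV RV replicate 1 gave 0.59 and leaving out EV RV replicate 2 gave 0.06, while leaving out Tox RV replicate 1 gave 0.17.

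*Gimap8* encodes the largest GIMAP protein, with more than 1 GTPase domain in a row. EV RV cells had 169 and 149 CPM of it, and Tox RV cells 186 and 163 CPM. The groups overlapped, since EV RV replicate 1 exceeded Tox RV replicate 2. Its log2 fold change was 0.14 (SE 0.17), with an adjusted p of 0.905 by edgeR's quasi-likelihood test, and 0.22 without EV RV replicate 1. It was 0.06 without EV RV replicate 2 and 0.03 without Tox RV replicate 1.

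*Gimap9* had 58.0 and 77.2 CPM in EV RV and 82.0 and 92.6 CPM in Tox RV. The Tox RV values were all above the EV RV values, as also in TPM, where the means were 88.9 ± 14.7 in EV RV and 109 ± 9.40 in Tox RV (SD, n = 2 each). The log2 fold change was 0.37 (SE 0.21), with an adjusted p of 0.897 by edgeR's quasi-likelihood test. EV RV replicate 1 was its lowest library. The fold change was 0.17 on the log2 scale without that library and 0.60 without EV RV replicate 2, the latter with an adjusted p of 0.0750 in the same edgeR test, the smallest of any member under any setting tried.

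For all 8 genes the 95% interval of the fold change held 1, and its upper end lay between 1.36-fold (*Gimap3*) and 1.85-fold (*Gimap7*). Its lower end lay between 0.714-fold (*Gimap3*) and 0.985-fold (*Gimap4*). These bounds give what 2 libraries per group could resolve, and a missed threshold does not show equal levels.

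Within a group, replicate 1 was above replicate 2 in CPM for 6 members in EV RV and for 7 in Tox RV. *Gimap9* went the other way in both groups, with a log2 difference (replicate 2 minus replicate 1) of 0.41 in EV RV and 0.18 in Tox RV. *Gimap7* had the largest difference in EV RV, −0.54, and *Gimap5* the largest in Tox RV, −0.38. The median absolute log2 difference of the members was 0.27 in EV RV and 0.18 in Tox RV, beside 0.38 and 0.17 for all genes tested. The replicate numbers are not stated to mark a shared mouse.

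Genes of quiescence and lymphocyte homing differed more, by their median, between the control libraries than the GIMAP genes did. Of 16 such genes, 14 were higher in EV RV replicate 1 than in EV RV replicate 2, and their median log2 difference (replicate 2 minus replicate 1) was −0.97, beside −0.19 for the GIMAP genes. In the comparison of Tox RV with EV RV, 0 of the 16 passed an adjusted p of 0.05, 3 had fold changes above 1 and 13 below, and their median log2 fold change was −0.28. This direction rested on EV RV replicate 1. Without that library the median was 0.10, with 11 of the 16 above 1, and without EV RV replicate 2 it was −0.58, with 1 of the 16 above 1. The most abundant were *Satb1*, a chromatin organizer (log2 fold change −0.30), *Slfn2*, which is needed for T cell quiescence (0.17), and *Btg1*, an antiproliferative gene (−0.17). *Ccr7*, a lymph node homing receptor chosen after its values were seen, had the smallest p-value of the list. It stood at 684 and 348 CPM in EV RV and 191 and 271 CPM in Tox RV, with a log2 fold change of −1.16 (SE 0.36) and an adjusted p of 0.897 by edgeR's quasi-likelihood test. Its log2 fold change was −0.60 without EV RV replicate 1, and −1.56 without EV RV replicate 2. The difference between the GIMAP and quiescence genes was not tested.

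**Figure D3:**
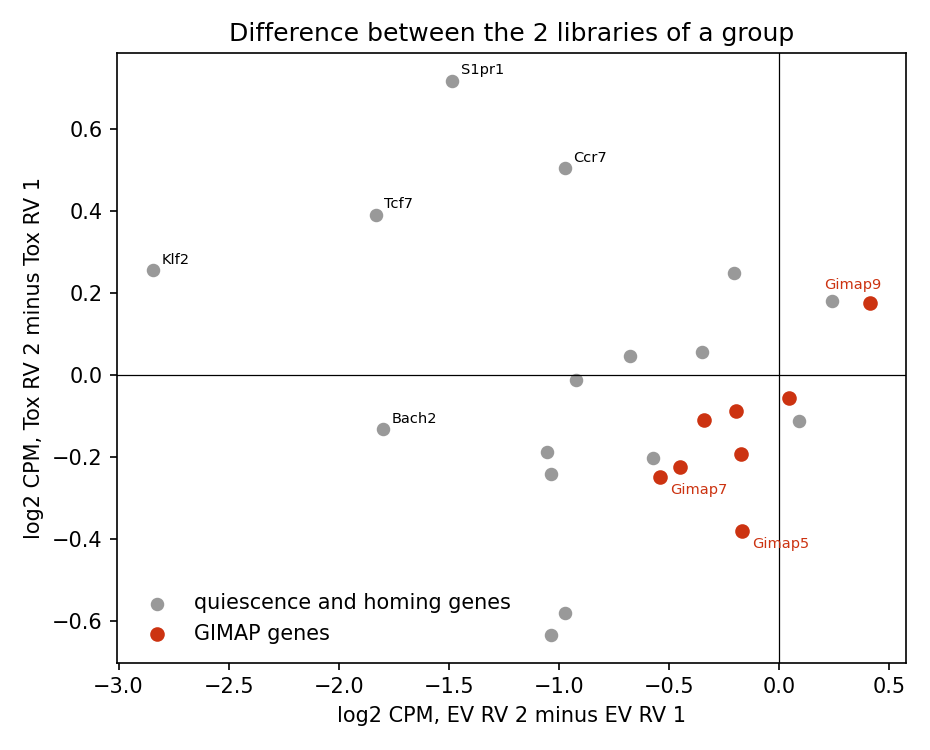
Log2 difference in CPM between the 2 libraries of each group, EV RV on the x axis and Tox RV on the y axis, for GIMAP genes (red) and 16 quiescence and homing genes (grey). GIMAP genes lie between −0.54 and 0.41 on the x axis, while quiescence genes such as Klf2 and Tcf7 lie further to the left.

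Gene families and pathways that hold proteins tied to GIMAPs were described in the same way. These lists were not limited to genes of such proteins. Of 13 BCL2 family genes, which set the threshold of apoptosis, 0 were called, 9 had fold changes above 1 and 4 below. Their median log2 fold change was 0.06 (0.0038 without EV RV replicate 1, and 0.17 without EV RV replicate 2). The most abundant were *Mcl1* (0.05) and *Bcl2* (0.15), both anti-apoptotic, and *Bcl2l11*, which encodes the pro-apoptotic BIM. *Bcl2l11* had 322 and 219 CPM in EV RV and 175 and 145 CPM in Tox RV, so the groups did not overlap. Its log2 fold change was −0.76 (SE 0.24), with an adjusted p of 0.897 by edgeR's quasi-likelihood test. Leaving out EV RV replicate 1 gave −0.46. Leaving out EV RV replicate 2 gave −1.002.

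Of 12 ATG8 family and autophagy genes, 0 were called, 8 had fold changes above 1 and 4 below, and the median was 0.10 on the log2 scale (0.08 without EV RV replicate 1, and −0.03 without Tox RV replicate 1). Without EV RV replicate 2 the median was 0.097. The most abundant were the cargo receptor gene *Sqstm1* (−0.12), *Becn1*, which acts in the start of autophagosome formation (0.20), and *Gabarap* (0.08). *Gabarapl2*, the gene of the GIMAP6 partner, had 50.8 and 33.6 CPM in EV RV and 36.6 and 33.9 CPM in Tox RV. Its Tox RV values lay between its EV RV values, and its log2 fold change was −0.26 (SE 0.24) with an adjusted p of 0.897 by edgeR's quasi-likelihood test. Of 5 genes for proteins tied to GIMAP5, 0 were called, 4 had fold changes above 1 and the median was 0.08 on the log2 scale. This median became −0.04 with 2 of 5 above 1 when EV RV replicate 1 was left out. It became 0.30 with 4 of 5 above 1 when EV RV replicate 2 was left out. Among them were the chaperone gene *Hspa8* (log2 fold change 0.27), the β-catenin gene *Ctnnb1* (0.08) and the lysosomal membrane gene *Lamp1* (0.18).

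Most genes around the cluster had fold changes below 1. Within 500 kb of the outermost GIMAP starts, 52 other genes are annotated, of which 23 are listed and 15 could be tested. None was called, 3 had fold changes above 1 and 12 below, and their median log2 fold change was −0.34 (−0.22 without EV RV replicate 1, with 12 again below 1). Without EV RV replicate 2 the median was −0.45, with 11 below 1. The most abundant were the splicing factor gene *Tra2a* (0.44), the RNA-binding protein gene *Igf2bp3* (0.15) and the zinc finger gene *Repin1* (−0.30). All were less abundant than *Gimap4*, the highest of them being *Tra2a* at 104 TPM. The next was *Malsu1* at 29.9 TPM, below *Gimap5*, the lowest member, at a mean of 46.8 TPM. Some neighbours had few counts, such as *Gm5111* with a mean of 0.44 CPM, so their fold changes are imprecise. The nearest tested genes beyond *Gimap3* were *Tmem176b* and *Tmem176a*, which encode paired membrane proteins and were chosen with their values in view. *Tmem176a* had 6.80 and 4.51 CPM in EV RV and 3.11 and 2.53 CPM in Tox RV, a log2 fold change of −0.998 (SE 0.31) with an adjusted p of 0.897 by edgeR's quasi-likelihood test. *Tmem176b* had a log2 fold change of −0.69 (SE 0.28). The difference between the GIMAP genes and their neighbours was not tested.

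**Figure D4:**
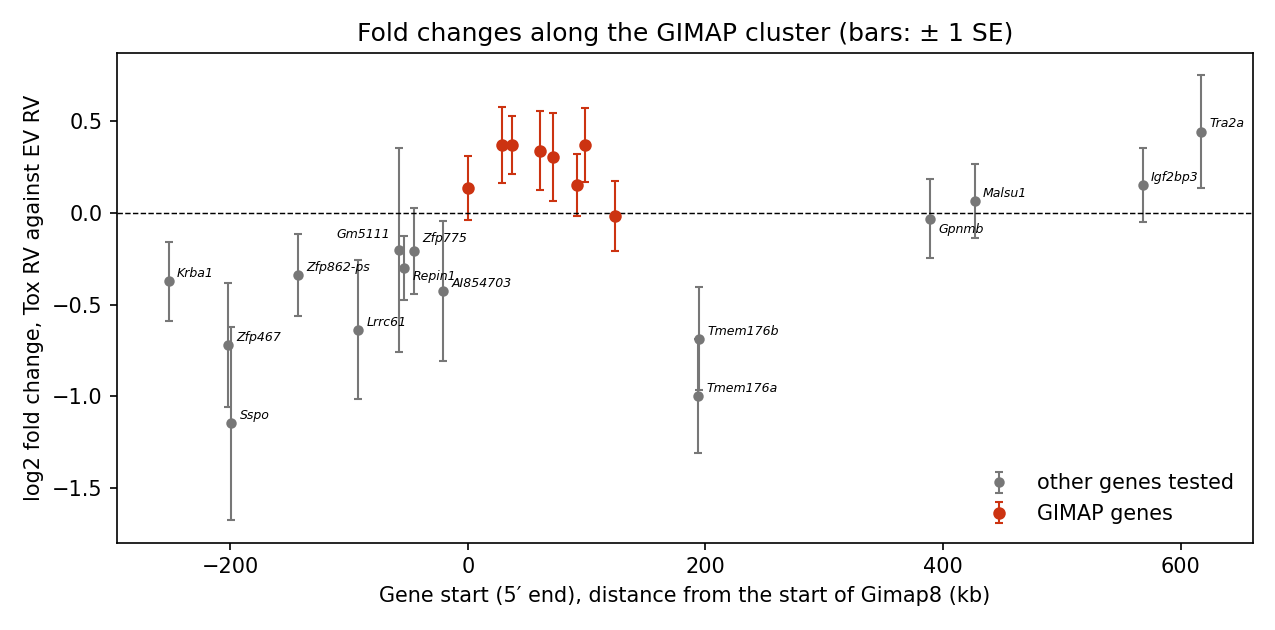
Log2 fold change (Tox RV against EV RV, bars ± 1 SE) of the 8 GIMAP genes (red) and the 15 other genes tested around them (grey), against the distance of each gene's start from that of Gimap8 in kb. The GIMAP estimates run from −0.02 to 0.37, and 12 of the 15 neighbours lie below 0.

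The genes whose pattern over the 4 libraries was most like the mean of the GIMAP genes were found by the root mean square difference of centred log2 CPM. The 5 nearest were *C920006O11Rik* (0.00519), *Dgat2* (0.0119), *Lonp2* (0.0198), *Ccdc23* (0.0201) and *Sord* (0.0218). Over so few libraries this likeness is a description only. The GIMAP mean itself ran −0.04 and −0.22 for EV RV, then 0.20 and 0.06 for Tox RV. Among the members *Gimap1* was nearest to that mean (0.0560) and *Gimap9* farthest (0.245).

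NK cell and endothelial markers were read beside the members, since NK cells also express GIMAP genes. The cells had been isolated as naive CD4 T cells and later sorted as CD4+ GFP+. How far these steps removed NK cells was not tested. The sum of the NK markers was 131.7 and 121.2 CPM for EV RV, against 100.2 and 78.2 CPM for Tox RV. Of the 6 markers, *Ncr1* and *Klra8* had no count in any library, while the other 4 had counts in every library. *Klrb1c*, the least abundant of these 4, had 10 to 46 counts per library. *Eomes*, the most abundant and also made by T cells, had 79.8 and 108.6 CPM in EV RV and 72.2 and 71.2 CPM in Tox RV. It was thus lower in replicate 1 than in replicate 2 of EV RV, whereas *Klrk1*, *Klrd1* and *Klrb1c* were higher in replicate 1 of both groups. *Klrd1*, for example, had 14.2 and 1.90 CPM with EV RV and 10.2 and 1.99 CPM with Tox RV. All 4 NK markers tested had fold changes below 1, with a median log2 fold change of −0.42, but that median was 0.68 without EV RV replicate 1. Without Tox RV replicate 1 the median was −1.85. The part of such cells in the GIMAP values was not tested. Endothelial markers summed to 33.9 to 46.0 CPM, mostly *Pecam1*.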

How the data were processed

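RNA-seq of 4 libraries (2 EV RV, 2 Tox RV) was analysed. The authors checked reads with fastqc, aligned them to mm10 transcripts with bowtie1 and quantified genes with RSEM, 1 library per file. Bowtie2 is also named in the submitters' processing notes, and other versions and use of strand are not given in the sources used here. The deposited expected counts are RSEM's estimated counts per gene, not normalized. The deposited TPM values are RSEM's length-corrected levels, which have the same total in each library. A further table of the whole series, named as TPM but with columns whose totals differ, was not used here. RSEM divides reads that match several genes by a model, so counts of genes that share stretches of sequence are uncertain.

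Samples were grouped by their titles. Rounded expected counts were fitted by edgeR 4.0.16 in R 4.3.3: filterByExpr (minimum count 10), TMM, glmQLFit and glmQLFTest over 14143 genes without a block, with Benjamini-Hochberg adjustment and a threshold of 0.05. The common biological coefficient of variation was 0.232. DESeq2 1.42.0, which the methods name, and limma 3.58.1 on log2(TPM + 1) and log2(TPM + 0.1) were alternatives, with other scalings and filters, the replicate number as a block, and each library left out in turn. Both count tests were tested on simulated data. There the libraries were drawn around 1 mean per gene and group, so none stood apart as EV RV replicate 1 did. Changes as small as those of the members (log2 of at most 0.37) were not simulated. In the data Tox itself was not called by edgeR, so recovery there may be lower. EdgeR's test on the simulated data recovered 24.5% of 98 genes given a log2 change of size 1 and 83.5% of 97 given 2. It made 12 false calls over 13946 genes tested. DESeq2 recovered 39% and 88% of 100 genes each, with 31 false calls over 14143 genes tested. For both tests, false calls made up a larger part of all calls than the threshold of 0.05 aims at. Replicates differed by far more than counting error (chi-square per degree of freedom 312 for EV RV and 61.0 for Tox RV). Every member count was at least 2072, so counting error adds little to the spread between libraries.

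The members, the gene lists and the marker lists were chosen with earlier results of these data known. All members were named. In each list, genes past an adjusted p of 0.05 were to be named, or, where there were none, the 3 with the highest mean CPM. Genes named beyond that rule are marked, apart from Gabarapl2, the cell type markers and the genes labelled in figures. Positions and overlaps come from GENCODE M21 and promoters from RefSeq.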

Additional observations from a re-analysis of the deposited data

How the results depend on the processing

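In 114 fits of single members over 15 settings, 0 calls were made, 110 kept their direction and 4 reversed, with log2 fold changes from −0.17 to 0.60 and a smallest adjusted p of 0.0750 (Gimap9, edgeR's quasi-likelihood test). The 4 reversals were all in Gimap3, at 0.11 with library totals, 0.055 with the counts of Gimap3 and Gimap5 summed, and 2 of the fits that left out a library, over which it ran from −0.17 to 0.16. Leaving out 1 library moved the members' median log2 fold change between 0.099 (without EV RV replicate 2) and 0.34 (without Tox RV replicate 2). Members called stayed at 0, while genes called over the whole table went from 0 to 22 with DESeq2, 22 with no filter on low counts and 16 when the replicate number was a block (replicate block). They ran from 1 to 600 when a library was left out, with 1 without EV RV replicate 1, 600 without EV RV replicate 2, 12 without Tox RV replicate 1 and 23 without Tox RV replicate 2, where the lone library of a group was assumed to vary like the other group. The cause was not tested.

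The number of members whose Tox RV values all lay above the EV RV values (5, against 18.6% of all genes) became 3 with median-of-ratios scaling (17.9%), 8 with library totals (27.5%) and 2 in TPM (11.6%). These alternatives, and the gene lists and family sums with a library left out, were chosen after seeing the data. Deviations from the group means correlated at 0.302 between libraries of the same number, with 2 pairs and no statement that a number marks a mouse. Under the block the members' adjusted p-values ran from 0.610 to 0.992 (edgeR), and 0 members were called. The members had at least 2072 counts in every library, and the number of libraries per group (2) limits the precision.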

Other observations

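Genes induced by the T cell receptor were read as a measure of the restimulation. Of 13 such genes, 0 were called by edgeR's quasi-likelihood test or DESeq2, 7 had fold changes above 1 and 6 below, and the median log2 fold change was 0.27. It was 0.53 without EV RV replicate 1, 0.06 without EV RV replicate 2 and −0.35 without Tox RV replicate 1. At an unadjusted p below 0.05 by edgeR's quasi-likelihood test, 2 were higher in Tox RV and 1 lower. Of all 14143 genes tested, 152 were higher and 360 lower at that level. The most abundant were *Il2ra*, the gene of the high-affinity IL-2 receptor chain (log2 fold change −0.29, SE 0.17), *Tnfrsf9*, the costimulatory receptor 4-1BB (0.50, SE 0.17), and *Irf4*, a transcription factor of activated T cells (−0.39, SE 0.27). *Tnfrsf9* had 726 and 824 CPM in EV RV against 1180.5 and 1009.8 CPM in Tox RV, with an adjusted p of 0.897 by edgeR's quasi-likelihood test. Its groups did not overlap, and 18.6% of all genes tested were higher in Tox RV in this way. *Ifng*, picked out after its values were seen, differed most between the EV RV libraries, at 10.9 and 106.6 CPM, with 96.0 and 47.4 CPM in Tox RV. Its log2 fold change was 2.72 without EV RV replicate 2 and −0.58 without EV RV replicate 1.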
